A study of Mus musculus with 15 samples.

Results

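Neurotrophic factors are secreted proteins that keep nerve cells alive and guide their fibres. The set described here holds 9 mouse genes of this kind, the ligand genes Ntf3, Ntf5 and Bdnf and the receptor genes Ngfr, Ntrk2, Ntrk3, Gfra1, Gfra2 and Lifr, out of 55357 gene identifiers counted. They were chosen by symbol, with earlier results of these data known, and all 9 symbols were found among the identifiers. The study measured RNA from whole mouse cornea in 15 libraries, and its title concerns the effect of an OPA1 mutation on the sensory nerve fibres of that tissue. There were 4 libraries of OPA1+/- corneas at 6 months, 3 of OPA1+/+ corneas at 6 months, 4 of OPA1+/- corneas at 3 months and 4 of OPA1+/+ corneas at 3 months. OPA1+/- animals carry 1 normal copy of Opa1, a gene for a GTPase that fuses inner mitochondrial membranes, and no other allele or treatment is named for any group. The nature of the mutation, the strain and the number of animals per library are not given in the sources used here, so p-values measure the spread between these libraries, which may in part be technical.

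The neurotrophins Ntf3, Ntf5 and Bdnf act through tyrosine kinase receptors. The product of Ntrk2, TrkB, binds Bdnf and Ntf5, the product of Ntrk3, TrkC, binds Ntf3, and the p75 receptor encoded by Ngfr binds all neurotrophins. Gfra1 and Gfra2 encode membrane-anchored co-receptors that present ligands of the GDNF family to the receptor Ret, and Lifr encodes a receptor subunit that pairs with gp130 (Il6st) for cytokines such as LIF and CNTF. The cornea is supplied by sensory fibres whose cell bodies lie in the trigeminal ganglion, outside the sampled tissue, and corneal epithelial cells and keratocytes are known to make neurotrophic factors.

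The libraries held 11673240 to 18194946 counts. In CPM, counts scaled to a library total of 1e6, a count of 0 leaves room for up to 0.165 to 0.257 (3 counts). Such limits cover counting error alone. Opa1 fell in OPA1+/- corneas at 6 months (log2 fold change -0.53 ± 0.06 SE, adjusted p = 0.000623) and at 3 months (-0.41 ± 0.06, adjusted p = 0.0193), by edgeR's quasi-likelihood test with Benjamini-Hochberg adjustment. Leaving out OPA1+/+ replicate 1 (adjusted p = 0.141) or OPA1+/- replicate 2 (0.0618), 3 (0.0909) or 4 (0.0667) of that age ended the call at 3 months. It was also lost in a fit of the compared groups alone (0.057) and in the fit without 2 libraries that stood apart by transcripts of retina or lens (0.0557). The fold change at 3 months was -0.41 without those 2 libraries and ran from -0.48 to -0.37 when single libraries were left out. The 2 libraries were OPA1+/- at 3 months, replicate 4, with 187 CPM of retina and 128 CPM of lens markers summed, and OPA1+/+ at 6 months, replicate 1, with 182 CPM of retina markers, against 18.8 and 9.84 CPM in the median library. Krt12, the keratin of corneal epithelium, lay at 26106 to 32909 CPM. The 22 markers of sensory neurons summed to 3.37 to 16.2 CPM, 5 of them were high enough to test, and Calcb, Scn10a, Scn11a and Mrgprd were at 0 in every library. These sums reached 16.2 CPM in OPA1+/+ corneas at 6 months and 14.3 CPM in OPA1+/- corneas at 3 months, the groups of the 2 libraries above. They reached 5.47 CPM in OPA1+/- corneas at 6 months and 7.07 CPM in OPA1+/+ corneas at 3 months. Schwann cell markers were low where they are most specific, with Sox10 at 0 to 10 and S100b at 0 to 3 counts per library.

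Positions are 1-based on GRCm39, and counts are of reads on exons. Of the 9 members, 8 were measurable in cornea, in that they passed the filter on low counts in this design. Gfra2 was the exception, with 0 to 8 counts per library. To compare genes, levels were divided by exon length, taken as the union of all annotated exons in kilobases (kb). Lifr was the highest, at 29.5 ± 2.89 CPM per kb (SD, n = 15 libraries), above 92.1% of the genes tested. Ngfr followed at 24.2 ± 2.4 and Ntf3 at 13.2 ± 0.965 CPM per kb, above 89.6% and 79.2% of genes. Gfra1 (5.22) and Ntrk2 (3.89 CPM per kb) lay in the middle of the distribution. Ntf5 (1.28), Ntrk3 (0.333), Bdnf (0.197) and Gfra2 (0.0674 CPM per kb) were at its lower end.

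Neighbours in this order were not all separate. The ranges of Lifr and Ngfr overlapped, with Lifr higher in 13 of 15 libraries. Gfra1 was above Ntrk2 in 15 of 15 libraries although their ranges overlapped. Ntrk3 exceeded Bdnf in 13 and Bdnf exceeded Gfra2 in 14 of 15 libraries. The other 4 neighbouring pairs did not overlap at all. Length matters most for Ntrk2, whose exon union of 19.29 kb joins alternative ends of long and short receptor forms. With the longest coding transcript of an earlier annotation, Ntrk2 stood at 8.57 and Gfra1 at 6.16 CPM per kb, so these 2 changed places, and no other pair did.

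**Figure D1:**
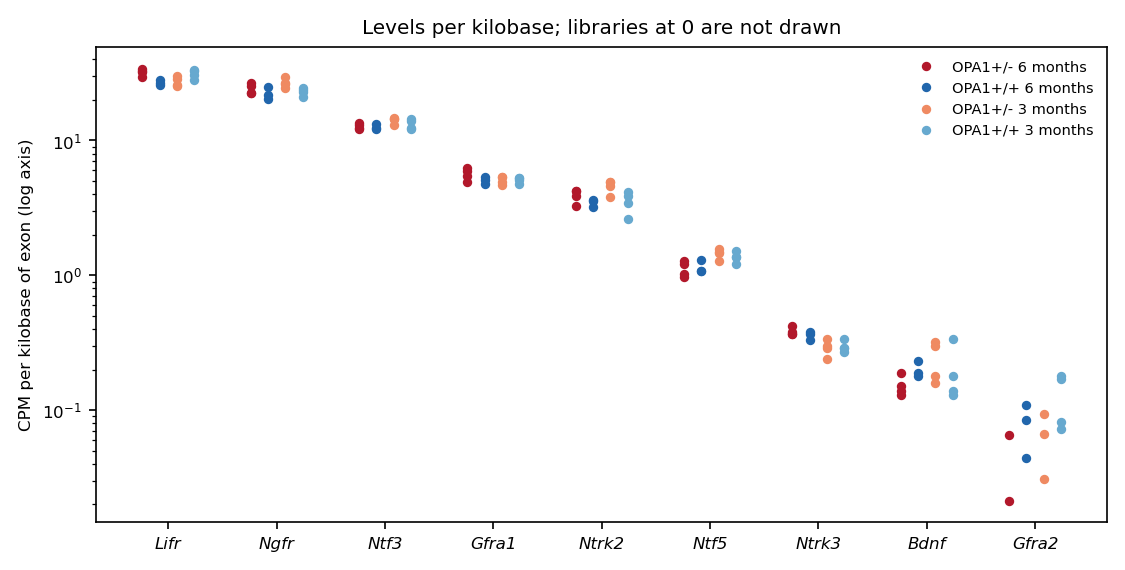
Level of each member in CPM per kilobase of exon on a log axis, 1 point per library, coloured by group. Lifr, Ngfr and Ntf3 lie above 12 CPM per kb in every library, and Gfra2, at 0 in 3 libraries that are not drawn, lies lowest.

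Genotypes were compared within each age and as the mean of the ages, ages within each genotype and as the mean of the genotypes, and the interaction compared the genotype effect at 6 months with that at 3 months. None of the 8 tested members passed in any of the 7 comparisons by edgeR's quasi-likelihood test. For genotype, the share of all 15770 genes that passed was 0.323% at 6 months, 0.00634% at 3 months and 0.793% over both ages. For age, it was 0.0824% in OPA1+/-, 0.0507% in OPA1+/+ and 0.412% over both genotypes. For the interaction, 0% passed. At an unadjusted p under 0.05, members numbered 1 for genotype at 6 months, 3 at 3 months and 2 over both ages, where 10.2%, 9.03% and 12.4% of all genes had such a p. For age they numbered 5 in OPA1+/-, 2 in OPA1+/+ and 3 over both genotypes, where 9.05%, 10.2% and 11.9% of all genes did. For the interaction there was 1 member, against 6.91% of all genes. The DESeq2 Wald test called 1 member in each of 3 comparisons, Lifr for genotype at 6 months and for the interaction and Ntrk3 for age over both genotypes, where it called 1.12%, 0.127% and 1.52% of all genes. Limma voom called 0 members.

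**Figure D2:**
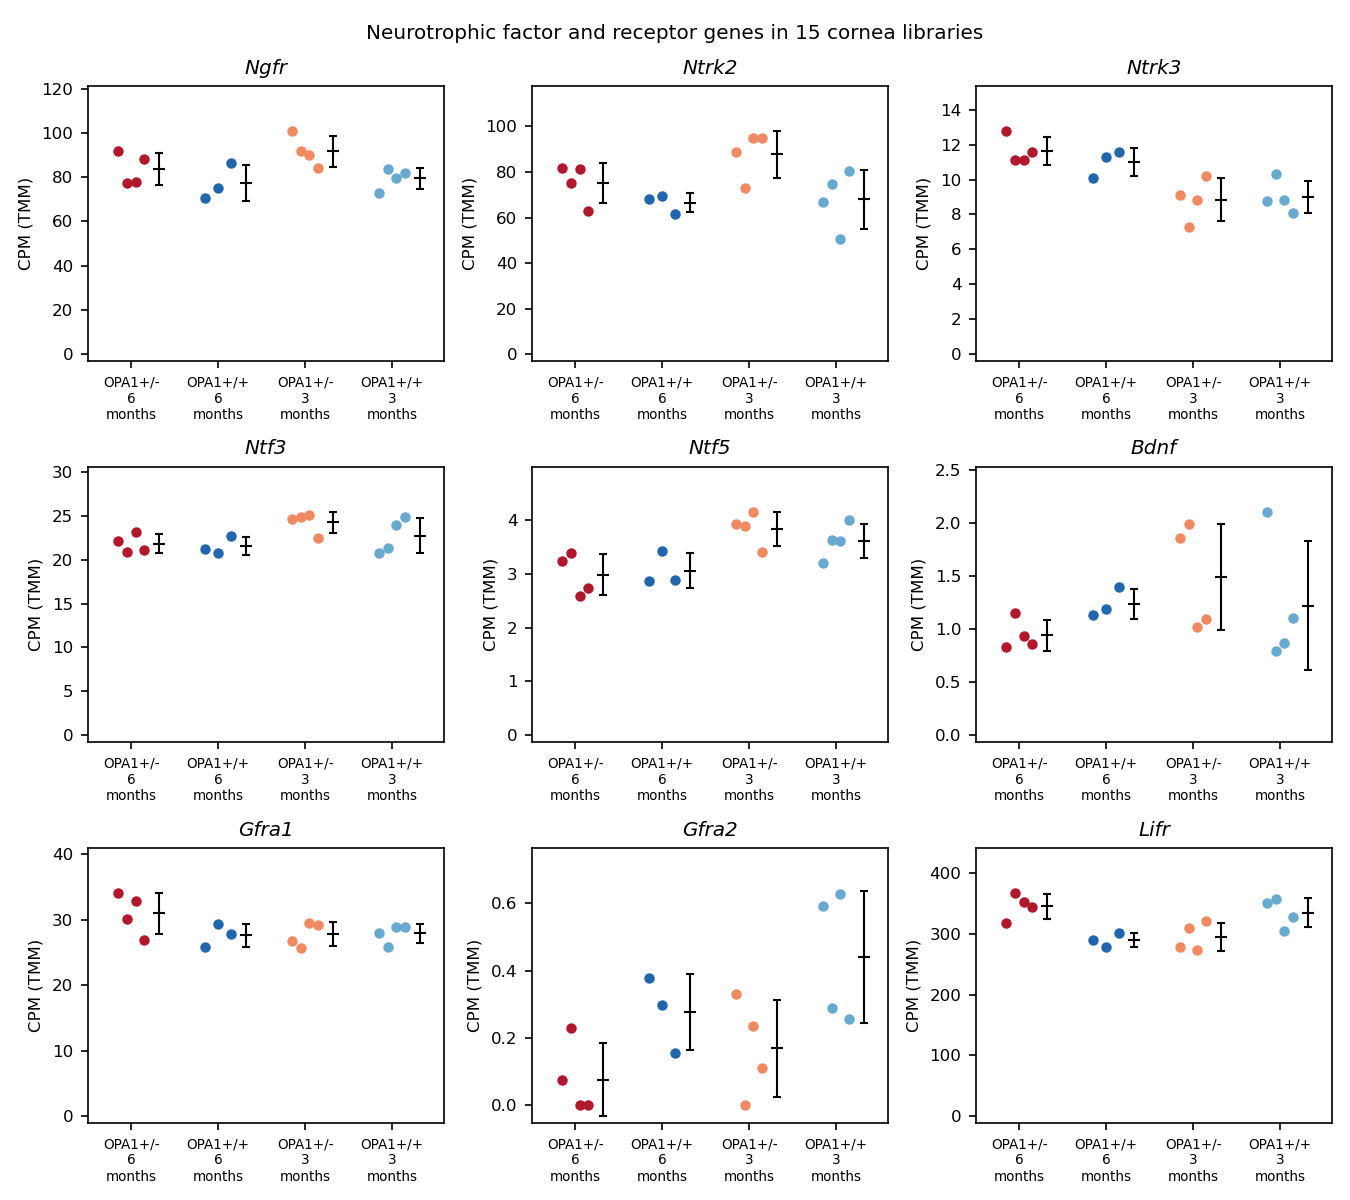
CPM of each member in every library, with the group mean and SD in black beside the points. Groups run from OPA1+/- at 6 months to OPA1+/+ at 3 months, and for Lifr all 4 OPA1+/- points at 6 months (318 to 368 CPM) lie above all 3 OPA1+/+ points of that age (279 to 301 CPM).

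Lifr, on chromosome 15 from 7120095 to 7226970, gave the smallest p of the set for genotype at 6 months. It was at 318, 368, 352 and 345 CPM in OPA1+/- corneas at 6 months, against 290, 279 and 301 CPM in OPA1+/+ corneas of that age. All 4 OPA1+/- libraries lay above all 3 OPA1+/+ libraries, as was so for 5.71% of all genes. The log2 fold change was 0.25 ± 0.07 (95% interval 0.12 to 0.39), with an adjusted p of 0.105. At 3 months the order of the means was the opposite, with 278, 309, 273 and 321 CPM in OPA1+/- corneas, against 351, 357, 305 and 328 CPM in OPA1+/+ corneas. These groups overlapped, since 2 OPA1+/- libraries (309 and 321 CPM) lay above the lowest OPA1+/+ library. The log2 fold change was -0.18 ± 0.06 (interval -0.31 to -0.06, adjusted p = 0.393).

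The genotype difference of Lifr at 6 months was then compared with that at 3 months. This interaction was 0.43 ± 0.09 on the log2 scale (interval 0.25 to 0.62) and did not pass over all genes by edgeR's quasi-likelihood test (adjusted p = 0.126). It passed with the DESeq2 Wald test (adjusted p = 0.00552) and without a filter on low counts (0.000837, a fit that called 0.06% of genes), and did not with limma voom (0.088). The difference at 6 months likewise passed with DESeq2 (0.0369), without a filter (0.00769) and in a fit of the compared groups alone (0.0296), where the last 2 fits called 0.442% and 1.3% of genes. Along age, Lifr averaged 346 ± 20.8 CPM at 6 months and 296 ± 23.5 CPM at 3 months in OPA1+/- corneas (SD, n = 4 each). The age difference in OPA1+/- was 0.23 ± 0.06 on the log2 scale (adjusted p = 0.184). In OPA1+/+ corneas it averaged 290 ± 11.3 CPM at 6 months (n = 3) and 335 ± 23.9 CPM at 3 months (n = 4), and there it was -0.21 ± 0.07 (adjusted p = 0.241). The OPA1+/+ libraries of 6 months all lay below those of 3 months, as in 3.7% of genes.

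Other transcripts moved between the same libraries, and their part in the values of Lifr was not tested. The summed Schwann cell markers, 18 listed and 8 tested, were at 520 to 566 CPM in OPA1+/- and 589 to 630 CPM in OPA1+/+ corneas at 6 months, led by Erbb3 and L1cam, of which Erbb3 is also made by epithelial cells. Arntl, a core gene of the daily clock chosen after its values were seen, lay at 18.2 to 23.8 CPM in OPA1+/- and 39.5 to 54.3 CPM in OPA1+/+ corneas at 6 months, and at 10.2 to 26.6 CPM in OPA1+/- and 12.1 to 24.6 CPM in OPA1+/+ corneas at 3 months. Over the 15 libraries Arntl correlated with Lifr at r = -0.32, and Dbp, another gene of the daily clock, at 0.37. Fewer cells that make a transcript and less of it per cell cannot be told apart in RNA from whole tissue. The partners of Lifr were present at 13.1 CPM per kb for Il6st, the shared signalling subunit, 17.7 for Osmr, which replaces Lifr in the oncostatin M receptor, and 1.38 for Cntfr, the binding subunit for CNTF. Among its ligands Lif stood at 0.94 CPM per kb, and Cntf, at 0 to 9 counts per library, was too low to test.

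Ngfr lies on chromosome 11 from 95459644 to 95478561, and its estimate was higher in OPA1+/- corneas at both ages. It was at 101, 91.6, 90.1 and 84.2 CPM in OPA1+/- corneas at 3 months, against 72.9, 83.8, 79.5 and 81.9 CPM in OPA1+/+ corneas. All OPA1+/- libraries lay above all OPA1+/+ libraries at this age, with 84.2 and 83.8 CPM at the closest pair, and 2.66% of all genes showed that separation. The log2 fold change was 0.21 ± 0.07 (interval 0.05 to 0.36, adjusted p = 0.417). At 6 months Ngfr was at 91.7, 77.4, 78 and 88.1 CPM in OPA1+/- corneas, against 70.5, 75.1 and 86.4 CPM in OPA1+/+ corneas, with a log2 fold change of 0.12 ± 0.08 (adjusted p = 0.659). Here the highest OPA1+/+ library lay among the OPA1+/- libraries. Over both ages the log2 fold change was 0.16 ± 0.05 (interval 0.05 to 0.27), a level 11.8% higher, and did not pass (adjusted p = 0.179). Across the 15 libraries Ngfr correlated at r = -0.59 with the summed leukocyte markers and at 0.56 with those of keratocytes (0.05 without Aldh3a1). Dbp correlated with Ngfr at 0.54 and Arntl at -0.34. The part of these transcripts in the Ngfr values was not tested.

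Ntrk2, on chromosome 13 from 58954383 to 59281784, had the largest genotype estimate of the set at 3 months. It was at 88.7, 73, 94.8 and 94.9 CPM in OPA1+/- corneas at 3 months, against 66.7, 74.7, 50.6 and 80.4 CPM in OPA1+/+ corneas. The OPA1+/- library at 73 CPM fell inside the OPA1+/+ range, and the OPA1+/+ library at 50.6 CPM was the lowest of all 15. The log2 fold change was 0.37 ± 0.13 (interval 0.08 to 0.66, adjusted p = 0.437), and 0.24 without that lowest library. It was 0.32 without the 2 libraries with retina or lens transcripts. Of these, OPA1+/- at 3 months, replicate 4, held the highest Ntrk2 value of all 15, 94.9 CPM. At 6 months Ntrk2 was at 81.6, 75, 81.4 and 63 CPM in OPA1+/- corneas, against 68.3, 69.5 and 61.6 CPM in OPA1+/+ corneas. Of the OPA1+/- libraries 3 lay above all OPA1+/+ libraries and 1 did not, with a log2 fold change of 0.18 ± 0.15 (adjusted p = 0.745). Over both ages it was 0.27 ± 0.10 (interval 0.06 to 0.49, adjusted p = 0.258). Gene-level counts do not separate the full-length kinase form of TrkB from its truncated forms.

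Of the summed marker lists, that of lens had the highest correlation with Ntrk2 over the 15 libraries, r = 0.61. The sum for corneal endothelium correlated with Ntrk2 at 0.40 and that for conjunctiva at -0.43. The summed CPM of the 15 listed keratocyte genes correlated with Ntrk2 at r = 0.44 over the 15 libraries. Most of that sum is Aldh3a1, at 12846 to 15666 CPM, which is also a corneal epithelial gene, and the sum of the other 14, a choice made after the values were seen, correlated at r = 0.64. The single genes most like Ntrk2 among 12285 searched were the collagen receptor Mrc2 (Pearson r = 0.93 over log2 CPM of 15 libraries), the matrix protein gene Aebp1 (r = 0.91) and Twist1, a mesenchymal transcription factor (r = 0.86). The listed keratocyte genes ran from Vim (0.78) and Col5a1 (0.77) down to Fmod (-0.47), with 13 of 15 above 0. These points share library, depth and dissection. Aebp1 itself lay at 58.5 to 68.5 CPM in OPA1+/- and 42.5 to 57.4 CPM in OPA1+/+ corneas at 3 months. Whether stromal content or lens transcripts have a part in the Ntrk2 values was not tested.

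**Figure D3:**
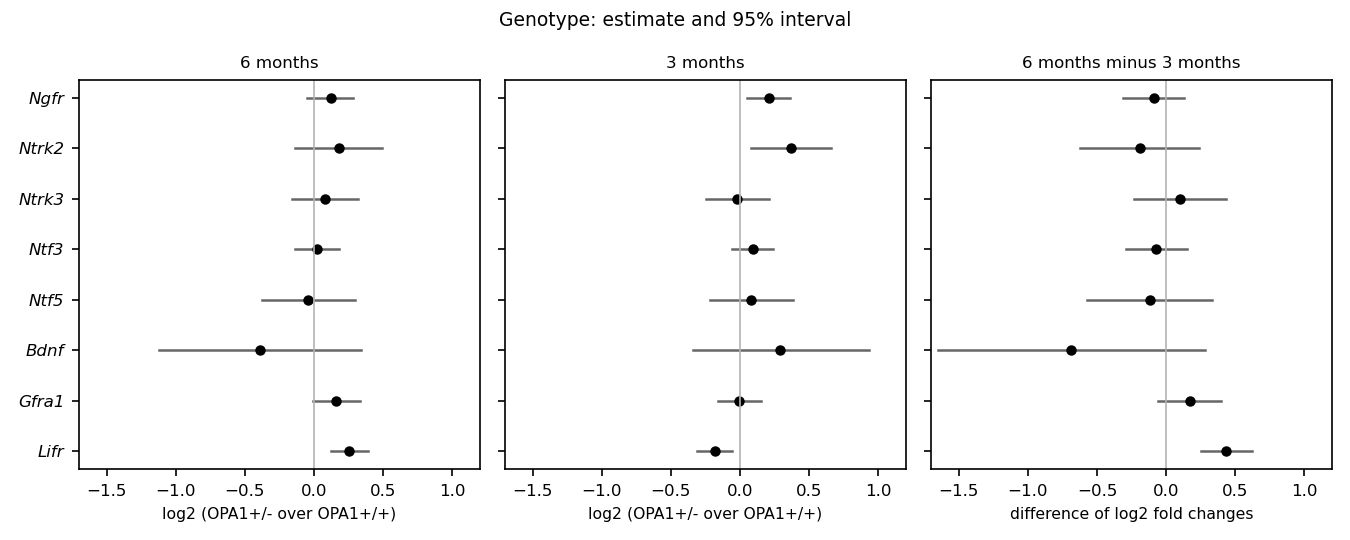
Log2 fold change of OPA1+/- over OPA1+/+ at 6 and at 3 months and, at the right, the 6-month minus the 3-month difference, with 95% intervals. The intervals of Lifr lie above 0 at 6 months and below 0 at 3 months, and those of Ngfr and Ntrk2 lie above 0 at 3 months.

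Ntrk3, on chromosome 7 from 77825707 to 78387760, had its larger estimates along age. It was at 12.8, 11.1, 11.1 and 11.6 CPM in OPA1+/- corneas at 6 months, against 9.10, 7.27, 8.85 and 10.2 CPM in OPA1+/- corneas at 3 months. Every 6-month library of OPA1+/- lay above every 3-month one, as in 2.9% of all genes, with a log2 fold change of 0.39 ± 0.11 (adjusted p = 0.217). In OPA1+/+ corneas it was at 10.1, 11.3 and 11.6 CPM at 6 months, against 8.78, 10.3, 8.81 and 8.09 CPM at 3 months. There the lowest 6-month library lay just below the highest 3-month library, and the log2 fold change was 0.28 ± 0.12 (adjusted p = 0.401). Over both genotypes it was 0.33 ± 0.08 (interval 0.17 to 0.50), and the adjusted p of 0.0657 was the smallest in the set but did not pass. It passed with the DESeq2 Wald test (adjusted p = 0.0317), without a filter on low counts (0.0226), without the 2 libraries with retina or lens transcripts (0.0231) and without OPA1+/+ at 6 months, replicate 1, alone (0.0374). The last 3 fits called 0.682%, 1.57% and 1.44% of all genes. Arntl correlated with Ntrk3 at r = 0.60 over the 15 libraries, pooled over groups and ages, while Dbp correlated with Ntrk3 at -0.15. The summed markers of conjunctiva correlated with Ntrk3 at -0.68, those of limbal and basal epithelium at -0.63, those of corneal epithelium at -0.57 and those of keratocytes at -0.56 (-0.63 without Aldh3a1). The part of these transcripts in the Ntrk3 values was not tested. The genotype difference of Ntrk3 over both ages was 0.03 ± 0.08 (interval -0.13 to 0.20).

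**Figure D4:**
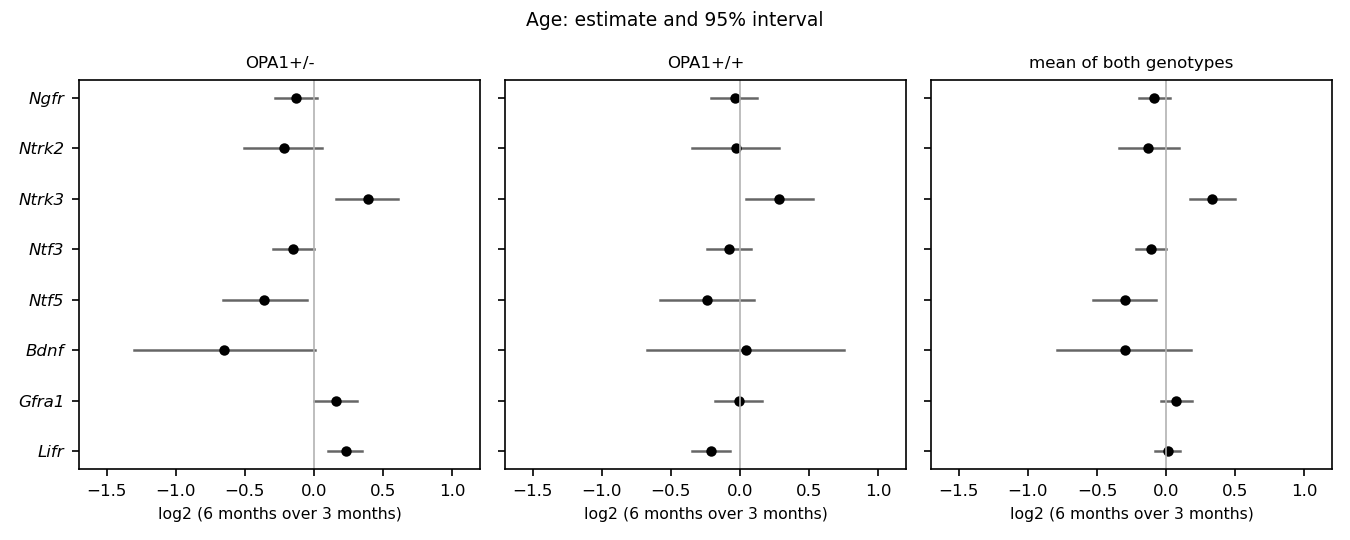
Log2 fold change of 6 over 3 months in OPA1+/- corneas, in OPA1+/+ corneas and averaged over both, with 95% intervals. Ntrk3 lies above 0 in all 3 panels, Lifr lies on opposite sides of 0 in the 2 genotypes, and Bdnf has the widest intervals.

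Among the ligands, Ntf3, the ligand of TrkC, was the most abundant per kb and varied least of all members over the 15 libraries. It lies on chromosome 6 from 126078375 to 126143873. It averaged 21.8 ± 1.05 CPM in OPA1+/- and 21.5 ± 1.03 CPM in OPA1+/+ corneas at 6 months, and 24.3 ± 1.2 CPM in OPA1+/- and 22.8 ± 1.97 CPM in OPA1+/+ corneas at 3 months (SD, n = 4, 3, 4 and 4). All 15 libraries lay between 20.8 and 25.1 CPM. The genotype log2 fold change over both ages was 0.06 ± 0.05, and its interval of -0.05 to 0.17 bounds any difference to a fold of 0.963 to 1.12. For age over both genotypes it was -0.11 ± 0.05 (adjusted p = 0.399). Over the 15 libraries Ntf3 correlated at r = 0.89 with the summed keratocyte markers, at 0.43 with that sum without Aldh3a1 and at 0.76 with the summed markers of corneal epithelium, which also hold Aldh3a1. Their part in the Ntf3 values was not tested.

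Ntf5, the gene of a neurotrophin that binds TrkB, lies on chromosome 7 from 45063119 to 45066603, and its estimate was lower at 6 months in both genotypes. It was at 3.24, 3.38, 2.59 and 2.74 CPM in OPA1+/- corneas at 6 months, against 3.92, 3.90, 4.15 and 3.40 CPM in OPA1+/- corneas at 3 months. Every 6-month library lay below every 3-month library, as in 3.14% of genes, with 3.38 and 3.40 CPM at the closest pair. The log2 fold change was -0.36 ± 0.15 (adjusted p = 0.467). In OPA1+/+ corneas Ntf5 was at 2.86, 3.43 and 2.88 CPM at 6 months, against 3.21, 3.63, 3.62 and 4.00 CPM at 3 months, so these groups overlapped (log2 fold change -0.24 ± 0.16, adjusted p = 0.666). Over both genotypes it was -0.30 ± 0.11 (interval -0.53 to -0.07, adjusted p = 0.253). The genotype difference over both ages was 0.02 ± 0.11 (interval -0.20 to 0.25). Listed transcripts of the stroma were read along age as well, without a test of their sums. All 15 keratocyte markers were high enough to test, and summed they lay at 16469 to 17216 CPM in OPA1+/- and 15513 to 16470 CPM in OPA1+/+ corneas at 6 months, and at 17591 to 18542 CPM in OPA1+/- and 15468 to 18670 CPM in OPA1+/+ corneas at 3 months. Without Aldh3a1 the sums were 1918 to 2426 CPM in OPA1+/- and 1945 to 2408 CPM in OPA1+/+ corneas at 6 months, against 2586 to 3066 CPM in OPA1+/- and 2256 to 3172 CPM in OPA1+/+ corneas at 3 months. Not all single markers followed the sums. Aldh1a1 lay at 184 to 253 CPM in OPA1+/- and 167 to 243 CPM in OPA1+/+ corneas at 6 months. At 3 months Aldh1a1 lay at 135 to 197 CPM in OPA1+/- and 137 to 206 CPM in OPA1+/+ corneas. Ntf5 correlated at r = 0.60 with the full sum, at 0.71 with the sum without Aldh3a1 and at 0.57 with the markers of corneal epithelium, over the 15 libraries. Whether these transcripts have a part in the Ntf5 values was not tested.

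Bdnf, the other TrkB ligand, on chromosome 2 from 109505045 to 109557352, was thinly covered. It had 11 to 28 counts per library, and its coefficient of variation over 15 libraries was 35.1%, against 7.29% for Ntf3. It was at 0.828, 1.15, 0.934 and 0.860 CPM in OPA1+/- and 1.13, 1.19 and 1.40 CPM in OPA1+/+ corneas at 6 months. It was at 1.86, 1.99, 1.02 and 1.1 CPM in OPA1+/- and 2.11, 0.798, 0.865 and 1.11 CPM in OPA1+/+ corneas at 3 months. Single libraries near 2 CPM occurred in both genotypes at 3 months, and groups overlapped in both genotype comparisons. The genotype log2 fold change was -0.39 ± 0.35 at 6 months (interval -1.12 to 0.34) and 0.29 ± 0.30 at 3 months (interval -0.34 to 0.93). These intervals hold folds of 0.46 to 1.26 and of 0.791 to 1.9, so differences within these limits were not excluded for Bdnf. Along age in OPA1+/- corneas the log2 fold change was -0.65 ± 0.31 (interval -1.30 to 0.01, adjusted p = 0.557), and the interaction was -0.69 ± 0.46 (interval -1.65 to 0.28, adjusted p = 0.834), so neither passed. Leaving out single libraries gave -0.78 to -0.49 for that age difference and -1.08 to -0.52 for the interaction. Of its exons 14.4% overlap Gm45346 on the opposite strand, and the counts were made by strand. The summed markers of skeletal muscle, 10 listed and 3 tested, correlated with Bdnf at r = 0.71 over the 15 libraries. The most abundant of them were Tnni2, at 17.1 to 25.2 CPM, and Ttn, at 0.0782 to 39 CPM. The highest Ttn value and the highest sum were both in OPA1+/+ corneas at 3 months. How far the correlation rests on single libraries was not tested. The sums lay at 18.9 to 69.2 CPM in OPA1+/+ and 23.3 to 36.4 CPM in OPA1+/- corneas at 3 months. At 6 months they lay at 25.6 to 27 CPM in OPA1+/+ and 18 to 24.5 CPM in OPA1+/- corneas. Their part in the Bdnf values was not tested.

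Gfra1, the co-receptor for GDNF, lies on chromosome 19 from 58224036 to 58444341. It was at 34, 30.1, 32.8 and 26.9 CPM in OPA1+/- corneas at 6 months, against 25.8, 29.3 and 27.8 CPM in OPA1+/+ corneas. The OPA1+/- group held 3 libraries above the OPA1+/+ range and, at 26.9 CPM, 1 inside it. The log2 fold change was 0.16 ± 0.08 (interval -0.01 to 0.33, adjusted p = 0.504). At 3 months Gfra1 averaged 27.7 ± 1.81 CPM in OPA1+/- and 27.9 ± 1.43 CPM in OPA1+/+ corneas (n = 4 each), and the interval of -0.16 to 0.15 bounds the fold to between 0.893 and 1.11. Its signalling partner Ret stood at 1.33 CPM per kb and its ligand Gdnf at 0.54 CPM per kb. Within the GDNF family of ligands, Artn was higher, at 6.96 CPM per kb, while its own co-receptor Gfra3 had 0 to 5 counts per library. Across the 15 libraries Gfra1 correlated at r = -0.59 with the summed Schwann cell markers, at -0.57 with those of conjunctiva and at 0.51 with those of corneal endothelium. The part of these transcripts in the Gfra1 values was not tested.

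Gfra2, the co-receptor for neurturin, on chromosome 14 from 71127560 to 71217278, had 1, 3, 0 and 0 counts in OPA1+/- and 5, 4 and 2 counts in OPA1+/+ corneas at 6 months. It had 5, 0, 3 and 2 counts in OPA1+/- and 7, 4, 8 and 3 counts in OPA1+/+ corneas at 3 months. Only 1 of 8 OPA1+/- libraries exceeded 3 counts, against 5 of 7 OPA1+/+ libraries, and the sums were 14 and 33 counts. The genotypes overlapped at both ages. In the fit without a filter on low counts, the 1 fit that includes it, the genotype difference over both ages did not pass (adjusted p = 0.208). No fold change is given at this level. Neurturin itself (Nrtn) was measurable, at 1.97 CPM per kb.

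The members are part of wider lists of pathway genes, and few genes of those lists passed. Of 20 neurotrophic ligands, 15 were tested and 0 passed in any comparison by edgeR's quasi-likelihood test, and of 22 receptors, 16 were tested and 0 passed. At an unadjusted p under 0.05 there were 0 to 3 ligands and 2 to 4 receptors per comparison, where 6.91% to 12.4% of all genes had such a p. DESeq2 called 0 ligands and, of the receptors, Lifr and Ntrk3 as above, and voom called 0 of either. Median log2 fold changes for genotype were -0.11 for ligands and 0.11 for receptors at 6 months and 0.08 and 0.01 at 3 months, where all genes had 0.00. Sort1, the sortilin co-receptor for precursor neurotrophins with Ngfr, stood at 20.8 CPM per kb. Of 12 genes for the cleavage of neurotrophin precursors, 8 were tested and 0 passed, with 1 to 2 per comparison at an unadjusted p under 0.05. DESeq2 called 1 of them, Plat, for genotype at 3 months, where it called 0.273% of all genes, and voom called 0.

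A single gene passed in each of the other lists, of signal transduction and of response genes. At an unadjusted p under 0.05 those lists held 2 to 6 and 1 to 3 genes per comparison, where 6.91% to 12.4% of all genes had such a p. The 2 calls were for genotype over both ages and at 6 months, where 0.793% and 0.323% of all genes passed by edgeR's quasi-likelihood test. Among 33 genes of signal transduction, 29 tested, Lingo1, a partner of the p75 receptor in the inhibition of axon growth, rose in OPA1+/- corneas over both ages (log2 fold change 1.31 ± 0.27, adjusted p = 0.0275). Its 8 OPA1+/- libraries held 0.782 to 1.65 CPM and its 7 OPA1+/+ libraries 0.226 to 0.937 CPM, which overlapped, on 3 to 30 counts each. The call was lost without the 2 libraries with retina or lens transcripts (adjusted p = 0.145), and without any 1 of OPA1+/- at 3 months replicates 1 or 4, OPA1+/- at 6 months replicate 3, or OPA1+/+ at 6 months replicates 1 or 2 (0.0552 to 0.0899). The fold change was 1.11 without the 2 libraries and 1.21 to 1.32 in the other fits that lost it. Voom called Lingo1 in this comparison, where it called 1.55% of all genes, while DESeq2 gave it no adjusted p and called 0 genes of the list. Among 19 response genes, 14 tested, Jun, an early response transcription factor, fell in OPA1+/- corneas at 6 months, at 64.1, 55.3, 59.5 and 58.9 CPM against 74.3, 82 and 71.4 CPM in OPA1+/+ corneas. Its log2 fold change was -0.35 ± 0.07 (adjusted p = 0.0325). That call was lost without the libraries with retina or lens transcripts (0.0629), without OPA1+/+ replicates 1 (0.0806) or 2 (0.239), or without OPA1+/- replicates 2 (0.109), 3 (0.132) or 4 (0.0744) of that age. The fold change was -0.37 without the libraries with retina or lens transcripts and -0.37 to -0.30 in the other fits that lost it. Every OPA1+/- library of 6 months lay below every OPA1+/+ library for Jun, as for 5.62% of all genes. Arntl was among these genes, and its part in the Jun values was not tested. Jun was called at 6 months by DESeq2 and by voom, which there called 1.12% and 0.666% of all genes. DESeq2 also called it along age in OPA1+/+ corneas (0.742% of all genes) and for the interaction (0.127%).

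For the remaining members, the genes with the most similar profiles over the 15 libraries were Id4, Icosl and Riok2 for Lifr (r = 0.85, 0.84 and 0.82), Zfp512b, Nrep and Adipor1 for Ngfr (0.87, 0.86 and 0.84) and Zbtb43, Ndufa12 and Oxr1 for Ntrk3 (0.89, 0.88 and 0.86). Ntf3 was most like Plcd1, Tcp1 and Wdr1 (0.90, 0.88 and 0.87), and Ntf5 most like Phldb1, Ppdpf and Pygb (0.91, 0.89 and 0.85). Gfra1 was most like Dcaf13, Psmb3 and Sf3a1 (0.86, 0.82 and 0.81), and Bdnf reached 0.82 at most, with Cracr2b. Values of this size are the highest among 12285 genes over 15 libraries and are given as a description. Between members, Ntf3 and its receptor Ntrk3 correlated at r = -0.64 over all 15 libraries and at -0.41 within groups. This was not particular to the pair, since Ntrk3 correlated with Ntf5 at -0.67 (-0.11 within groups) and with Bdnf at -0.52 (-0.46). Ntf5 and its receptor Ntrk2 correlated at 0.34 and at 0.19 within groups, and Bdnf and Ntrk2 at 0.04 and -0.18. Ntf3 and Ngfr correlated at 0.58 and at 0.38 within groups.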

How the data were processed

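Total RNA of mouse corneas was sequenced after ribosomal RNA depletion in strand-specific libraries, per the labels' protocols. Each deposited file gives integer counts by gene. They were made with featureCounts 2.0.1 from reads on exons, strand setting 2, against GENCODE mouse release 28, per the file headers. The submitters' processing notes name mm10 and DESeq2. The sources used here name no aligner. Positions were read as GRCm39, since 0 of 9 members had the same position in release 21 on the earlier build. The exon lengths used for CPM per kb are the authors' other column, per the file headers. Symbols came from a separate table and matched 52081 of 55357 identifiers (94.1%).

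From these counts, filterByExpr on the 4 groups left 15770 genes. One edgeR 4.0.16 quasi-likelihood model (R 4.3.3, TMM, robust, 1 mean per group, 11 residual degrees of freedom) was fitted to all 15 libraries, with a biological coefficient of variation of 0.0884. Adjusted p-values are Benjamini-Hochberg values over the 15770 genes, called below 0.05. CPM values use TMM-adjusted totals, except the sums of retina and lens markers, which use raw totals. SE is the absolute log2 fold change over the square root of F, and intervals are at 95%. The procedure was tested on simulated data. No pair of replicates agreed within sampling noise (chi-square per degree of freedom 3.27 to 10.1).

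Alternatives were DESeq2 size factors, the DESeq2 1.42.0 Wald test, limma 3.58.1 voom with sample weights, a block for the replicate number, no filter, a minimum mean of 1 CPM, the compared groups alone, a fit without the 2 libraries with retina or lens transcripts, and each library left out in turn. The transcript length, and the same alternatives for Opa1, Lingo1 and Jun, were added after seeing the data. Members and gene lists were chosen with earlier results of these data known. Named genes are Opa1, the members, called genes of the pathway lists or else those of smallest p, the 3 genes most correlated with each member and the leading markers. Binding partners of the members, Arntl and Dbp were named after their values were seen.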

Additional observations from a re-analysis of the deposited data

How the results depend on the processing

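Over 23 alternatives, 1213 of 1264 recomputed fold changes of the 8 tested members kept their direction and their side of the threshold. The number of members called became 1, in place of 0, as follows: for genotype at 6 months (Lifr) with DESeq2, with no filter and with the compared groups alone; for age in OPA1+/- with no filter (Lifr, adjusted p = 0.0185); for age over both genotypes (Ntrk3) with DESeq2, with no filter and without the libraries with retina or lens transcripts, and 0 to 1 when single libraries were left out; and for the interaction (Lifr) with DESeq2 and with no filter. The cause was not tested. Leaving out single libraries gave 0 members called in the other 6 comparisons. Over all settings the Lifr difference at 6 months ran from 0.22 to 0.29 (adjusted p 0.00769 to 0.435), its interaction from 0.40 to 0.49 (0.000837 to 0.559), and Ntrk3 along age from 0.29 to 0.40 (0.0226 to 0.188). Signs reversed for small estimates alone, none of them called. Without the libraries with retina or lens transcripts, Ntrk3 for genotype over both ages was -0.04, and along age in OPA1+/+ Ngfr was 0.02 and Gfra1 0.03. With voom, Gfra1 was 0.02 for genotype at 3 months and 0.03 along age in OPA1+/+, and Lifr along age over both genotypes was -0.01. With single libraries left out, ranges that crossed 0 were, along age in OPA1+/+, Ntrk2 -0.16 to 0.05, Ngfr -0.13 to 0.02, Bdnf -0.13 to 0.43 and Gfra1 -0.06 to 0.03; for genotype at 6 months, Ntf3 -0.01 to 0.06 and Ntf5 -0.10 to 0.05; for genotype at 3 months, Ntrk3 -0.10 to 0.06 and Gfra1 -0.05 to 0.02; for genotype over both ages, Ntrk3 -0.01 to 0.07, Bdnf -0.14 to 0.14 and Ntf5 -0.01 to 0.07; Ngfr for the interaction, -0.15 to 0.00; and Lifr along age over both genotypes, -0.02 to 0.03. With the replicate number as a block, 0 members were called in all 7 comparisons, the Lifr interaction had an adjusted p of 0.314, Bdnf along age in OPA1+/+ was -0.01, and the Opa1 call at 3 months was lost (adjusted p = 0.0515). The numbers were not taken to pair libraries, since 1 of 14 same-numbered pairs had a correlation over 0.1 (range -0.14 to 0.23) and 5 of 14 libraries correlated best with their own number. Depth limits Gfra2 and Bdnf most.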

Other observations

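Plat, the gene of tissue plasminogen activator, which takes part in the cleavage of the Bdnf precursor, averaged 26.4 ± 3.77 CPM in OPA1+/- and 17.4 ± 2.91 CPM in OPA1+/+ corneas at 3 months. The 4 OPA1+/- libraries (21.2 to 29.9 CPM) lay above the 4 OPA1+/+ libraries (14.2 to 20.7 CPM), as in 2.66% of all genes. Its fold change on the log2 scale of 0.60 ± 0.15 did not pass with edgeR (adjusted p = 0.214), while the DESeq2 Wald test called it along with 0.273% of all genes. Sorcs3, a receptor of the sortilin family, averaged 4.17 ± 0.919 CPM over 8 OPA1+/- and 3.08 ± 0.418 CPM over 7 OPA1+/+ libraries, with a log2 fold change of 0.45 ± 0.15 (adjusted p = 0.17).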
